A study of Mus musculus with 2 samples.

Results

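The genes described here encode the enzymes that write, copy and remove DNA methylation, together with their closest helpers: Dnmt1, Uhrf1, Dnmt3a, Dnmt3b, Dnmt3l, Tet1, Tet2 and Apobec3. They were chosen by symbol, as 8 of the 33670 gene symbols in the deposited matrices, and each has a single identifier there. They were measured by single-cell RNA sequencing of embryoid bodies, floating clumps of stem cells that begin to differentiate. The cells are of the male J1 mouse embryonic stem cell line. The control library came from embryoid bodies given the solvent DMSO for 2 days. The other library came from embryoid bodies given dTAG13 for 2 days, a small molecule that brings proteins carrying the FKBP12(F36V) tag to a ubiquitin ligase for degradation. The series title names Tex10. Neither the tagged protein nor the number of clones or cultures is given in the labels.

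In mammals most DNA methylation sits on cytosines followed by guanine. DNMT3A and DNMT3B place new marks, with DNMT3L as a partner that has no catalytic activity of its own. After each round of DNA replication the new strand is unmethylated, and UHRF1 recognises this state and recruits DNMT1 to copy the mark. TET enzymes oxidise methylcytosine, which can then be lost at replication or cut out by base excision repair. APOBEC3 is a cytidine deaminase known mainly for restricting retroviruses and retrotransposons. Naive mouse embryonic stem cells have little methylation and high TET levels, and the DNMT3 genes are switched on as cells move towards the formative state.

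Each group was 1 library, so no difference has a replicate check, no test was run, and each comparison is between these libraries. After filtering, 17878 DMSO cells with 117189816 UMIs (counts of distinct tagged transcripts) and 11588 dTAG13 cells with 91808969 UMIs remained, with medians of 6014 and 7072.5 UMIs per cell. Levels are UMIs scaled to the library total (CPM), and ratios are dTAG13 over DMSO. All intervals are 95% intervals for counting error only. The libraries share 64 barcode sequences, 63 of them among kept cells. All 8 shared pluripotency markers were above 5 CPM in both libraries, so markers of the labelled stem cell line were present. No endoderm, mesoderm or fibroblast marker reached 5 CPM. The endoderm and mesoderm lists thus do not show the differentiation that the label of embryoid bodies implies. Some neural and formative markers did reach 5 CPM. Of 4 neural ones 2 were measured, Tubb3 at 53.4 and 38.05 CPM (DMSO and dTAG13) and Nes at 5.64 and 20.99 CPM. Their ratios were 0.712 and 3.72. Of 5 measured formative markers, 3 had an interval above a ratio of 1 and 1 below. Among them Pou3f1, at 1.62 and 5.23 CPM, reached 5 CPM only in the dTAG13 library. The 12 naive pluripotency markers summed to 8943 CPM in the DMSO and 7773 CPM in the dTAG13 library. Of 11 measured ones, 9 had an interval below a ratio of 1 and 1 above. Of all measured genes, 32.1% had an interval below 1 and 51.6% one above. The 13 trophoblast markers summed to 208 and 214 CPM, but single genes differed in both directions. Of 7 measured ones, 5 were at least 1.5-fold higher with dTAG13, again against 14.2% of all measured genes. Krt7 and Ascl2 counted as measured only through the dTAG13 library. Krt7 was at 1.54 and 8.19 CPM, and Ascl2 at 0.777 and 5.93 CPM. Tfap2c, Krt8 and Krt18, above 5 CPM in both libraries, had ratios of 2.40, 2.64 and 2.62. Rhox6 and Rhox9 were lower, at ratios of 0.248 and 0.236, where 5.4% of all measured genes were at least 1.5-fold lower. Whether a shift of cell state has a part in the differences below was not tested. Treatment and library cannot be told apart.

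Promoter sequences are shown for Uhrf1 and Dnmt1, the pair that copies methylation at replication, because Uhrf1 is described below with S-phase transcripts. The windows come from RefSeq on GRCm38.p6 and run from 250 bases before to 50 bases after an annotated start. Capitals mark E2F words, here TTTCCCGC, TTTCGCGC, TTTGCCGC or TTTGGCGC on either strand. E2F factors drive genes of S-phase entry. All windows are written 5′ to 3′ on the strand of the gene.
Uhrf1, chr17:56304063-56304362, plus strand: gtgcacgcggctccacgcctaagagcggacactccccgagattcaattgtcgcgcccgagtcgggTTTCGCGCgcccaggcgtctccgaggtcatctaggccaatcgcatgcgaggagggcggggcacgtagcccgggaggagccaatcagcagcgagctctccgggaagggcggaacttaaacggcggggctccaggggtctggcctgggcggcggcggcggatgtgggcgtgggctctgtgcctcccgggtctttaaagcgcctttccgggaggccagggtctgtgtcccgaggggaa
Uhrf1, chr17:56303087-56303386, plus strand: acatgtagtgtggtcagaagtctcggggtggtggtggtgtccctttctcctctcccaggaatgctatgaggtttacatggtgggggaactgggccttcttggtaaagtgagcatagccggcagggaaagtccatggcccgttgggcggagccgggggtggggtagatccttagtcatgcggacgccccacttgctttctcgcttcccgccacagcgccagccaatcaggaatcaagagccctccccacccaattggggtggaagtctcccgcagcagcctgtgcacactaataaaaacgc
Dnmt1, chr9:20952574-20952873, minus strand: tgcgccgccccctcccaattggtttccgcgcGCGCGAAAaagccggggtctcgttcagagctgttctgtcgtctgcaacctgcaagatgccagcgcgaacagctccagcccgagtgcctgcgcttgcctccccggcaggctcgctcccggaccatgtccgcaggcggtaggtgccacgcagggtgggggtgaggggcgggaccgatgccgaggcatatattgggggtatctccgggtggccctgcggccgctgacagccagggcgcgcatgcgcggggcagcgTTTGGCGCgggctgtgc
All 8 genes have a window, 16 in all. An E2F word was found in a window of 2 of the 8 genes: 1 match in 1 of the 2 Uhrf1 windows and 2 matches in 1 of the 3 Dnmt1 windows. Of 32851 windows of the same length, 744 (2.26%) hold such a word, and of 27 S-phase list genes with a window, 10 do. The first is a share of windows and the others are shares of genes, which can have several windows, so they are not like for like. Every E2F word used holds a CG. The Uhrf1 and Dnmt1 windows with a match each hold 33 CG dinucleotides, against a median of 7 over all windows. The CCAAT word, on either strand, had 3 matches in the Dnmt1 window shown, and 3 and 2 in the upstream and downstream Uhrf1 windows. In the Dnmt1 and upstream Uhrf1 windows the stretch CCAATTGG counts as 2 of these matches, 1 per strand. A Dnmt1 window not shown, without an E2F word, held 5 matches. Of all windows, 37.4% held at least 1. A match is a description of the letters and not a measured binding site.

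Uhrf1, the recruiter of the maintenance methyltransferase, was at 71.5 CPM (interval 70.0 to 73.1) in the control and 42.6 CPM (41.2 to 43.9) after dTAG13. The ratio was 0.595 (0.573 to 0.618), and the counting intervals of the libraries do not overlap. Dnmt1, which UHRF1 recruits, was at 181 CPM in the control and 171 CPM after dTAG13, giving a ratio of 0.941 (0.922 to 0.961). The pair thus did not differ by the same factor.

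Among the genes of new methylation, only Dnmt3l was far from a ratio of 1. The catalytic Dnmt3a was at 19.9 and 18.8 CPM with DMSO and dTAG13, a ratio of 0.945 (0.888 to 1.01). Dnmt3b, the other catalytic enzyme, was at 32.3 and 30.2 CPM, a ratio of 0.935 (0.890 to 0.982). Dnmt3l, the non-catalytic partner, was at 24.6 CPM (23.7 to 25.5) in the control and 39.7 CPM (38.4 to 41.0) after dTAG13, giving a ratio of 1.62 (1.54 to 1.70). Reads from the 3′ end do not separate isoforms, so the long and short forms of Dnmt3a are counted together.

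Tet1 and Tet2, which oxidise methylcytosine, and the deaminase gene Apobec3 were lower in the dTAG13 library. Tet1 was at 361 CPM in the control and 291 CPM after dTAG13, giving a ratio of 0.807 (0.795 to 0.819). Tet2 was at 66.9 and 50.7 CPM, a ratio of 0.758 (0.730 to 0.786). Apobec3 was at 27.6 CPM (26.7 to 28.6) in the control and 16.8 CPM (16.0 to 17.7) after dTAG13, giving a ratio of 0.609 (0.573 to 0.647). The third TET gene, Tet3, was at 1.54 and 2.73 CPM, a ratio of 1.78 (1.46 to 2.17). It was not counted as measured, for which 5 CPM was asked in 1 or both libraries.

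Of the 8 genes, all measured, 2 were at least 1.5-fold lower (Uhrf1 and Apobec3) and 1 was at least 1.5-fold higher (Dnmt3l). Of all 8817 measured genes, 5.4% were at least 1.5-fold lower and 14.2% at least 1.5-fold higher. The single gene on the higher side is near that background share. The median log2 ratio of the 8 was -0.20, against 0.09 for all measured genes, and Uhrf1 and Apobec3 lay at the percentiles 3.32 and 3.80 of the log2 ratios of all measured genes. The count on the lower side was 0 in cells called S phase, where Uhrf1 and Apobec3 had ratios of 0.722 (0.641 to 0.811) and 0.823 (0.658 to 1.03). Both intervals include a 1.5-fold lower level, so that count does not settle whether the genes pass the limit there. In cells called G2 or M, most cells of each library, the ratios were 0.635 (0.609 to 0.662) and 0.596 (0.557 to 0.637). These genes had been named in an earlier analysis of the same data, so the counts describe a chosen list.

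**Figure D1:**
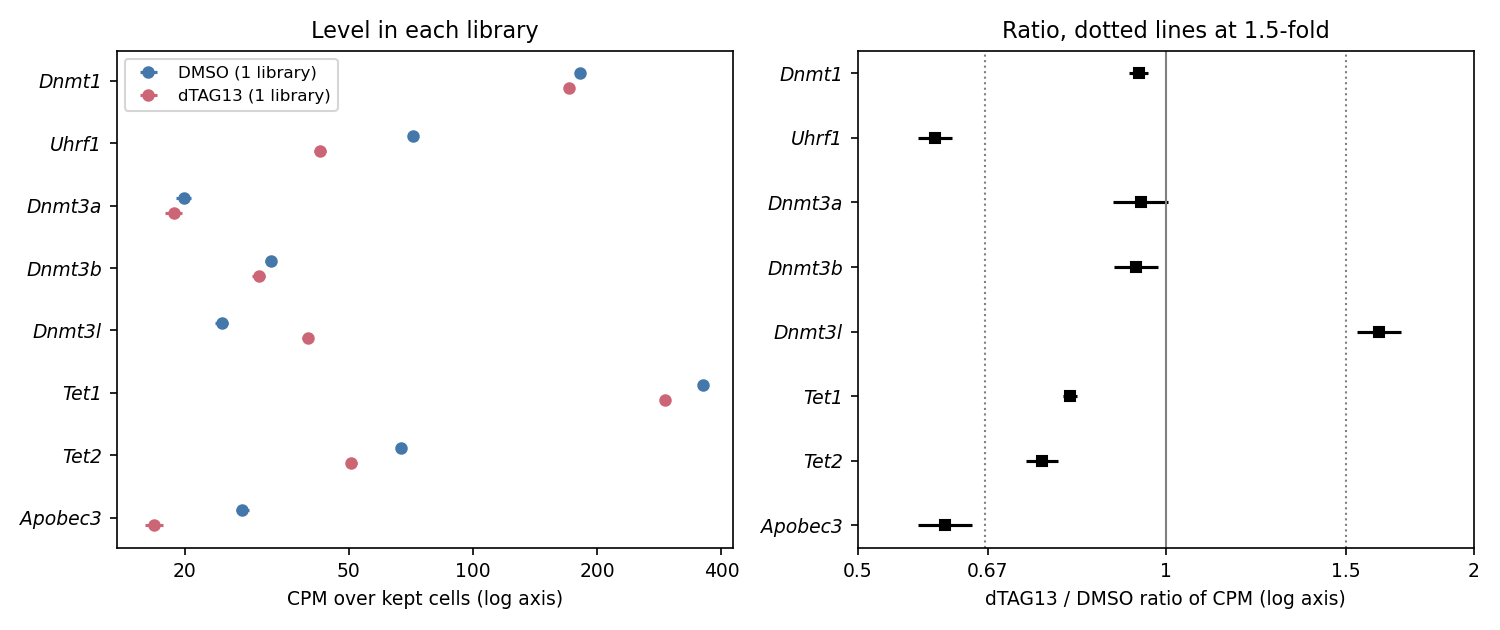
Level of each gene in CPM over kept cells (left, log axis, 1 point per library) and ratio of dTAG13 to DMSO (right, log axis), with 95% counting intervals and dotted lines at 1.5-fold. Uhrf1 and Apobec3 lie below the lower dotted line at 0.595 and 0.609, and Dnmt3l above the upper one at 1.62.

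Per cell, transcripts of these genes were sparse. Because the dTAG13 cells held more UMIs, each cell with at least 3900 UMIs was thinned to 3900, which kept 16123 DMSO and 10815 dTAG13 cells. Uhrf1 was then detected in 23.6% (22.9 to 24.2) of control cells and in 14.3% (13.6 to 14.95) after dTAG13, and without thinning in 34.5% and 25.5%. Apobec3 had a UMI in 10.1% (9.69 to 10.6) of thinned DMSO cells and 5.91% (5.47 to 6.37) of thinned dTAG13 cells, and without thinning in 16.2% and 12.01%. Dnmt3l went the other way, at 8.58% (8.15 to 9.02) and 13.9% (13.2 to 14.5) of thinned cells, and 13.3% and 23.0% without thinning.

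Tet1 was the gene of this group found in the most cells of each library, with a UMI in 70.6% (69.9 to 71.3) of thinned DMSO cells and 61.7% (60.7 to 62.6) of thinned dTAG13 cells (81.8% and 77.3% without thinning). Tet2 had a UMI in 21.3% and 17.3% of thinned cells (31.9% and 28.8% without thinning). Dnmt1 was found in 49.7% (48.9 to 50.5) and 46.7% (45.7 to 47.6) of thinned cells, while the order was the opposite without thinning, at 64.6% and 66.2% of all kept cells and 67.5% (66.8 to 68.3) and 68.7% (67.8 to 69.6) of the same cells that were thinned, where the intervals overlap. Dnmt3b was found in 10.97% and 9.55% of thinned cells, against 16.8% and 17.7% of all kept cells and 17.96% and 18.6% of the same cells without thinning. Dnmt3a was found in 7.19% (6.80 to 7.60) and 6.56% (6.11 to 7.05) of thinned cells, and 11.6% and 12.6% without thinning.

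No cell type that should lack these transcripts was identified, so the background share set by free RNA is unknown. Low shares in single clusters (formed as described below), at the same 3900 UMIs, limit how large it can be. Uhrf1 was lowest in cluster 12, where 8.45% (3.16 to 17.5) of 71 cells from the DMSO library and 7.79% (6.77 to 8.91) of 2491 from the dTAG13 library had a UMI. Apobec3 was at 4.81% (4.08 to 5.63) of 3055 dTAG13 cells in cluster 4, close to its 5.91% over the library, and at 3.23% (0.393 to 11.2) of 62 DMSO cells in cluster 13. Dnmt3l was at 4.07% (3.41 to 4.82) of 3143 DMSO cells in cluster 8 and Tet2 at 5.24% (3.51 to 7.49) of 534 dTAG13 cells in cluster 7. Background and expression cannot be told apart below these levels, which for Apobec3 with dTAG13 come close to its share over the library.

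At the deepest end of the distribution, counts above 1 followed the same order. Cells with at least 3 Tet1 UMIs after thinning made up 17.6% of the DMSO library and 13.7% of the dTAG13 library. For Uhrf1 this share was 0.552% and 0.102%, and for Dnmt3l 0.0868% and 0.296%.

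Uhrf1 is a known S-phase gene, and S-phase transcripts as a whole were lower with dTAG13. Of 39 other S-phase genes, 31 had a ratio whose interval lay below 1, against 32.1% of all measured genes. Their median log2 ratio was -0.28, and only 3 of them, Gmnn, Cdc6 and E2f8, had a lower ratio than Uhrf1. Summed over the list, thinned cells held a median of 17 S-phase UMIs with DMSO and 14 with dTAG13. Cells were therefore split into 5 bins by these UMIs, and each gene was compared within bins. The bins are ranges of a count and not cell cycle phases. In the lowest bin, of 0 to 11 UMIs, the libraries still differ in S-phase UMIs. The 10th percentile was 11 in DMSO cells and 6 in dTAG13 cells. Matching is therefore incomplete in that bin, which bears on its ratios and on the matched ratios over all bins.

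Within both libraries Uhrf1 was higher in cells with more S-phase transcripts. In DMSO cells its mean was 0.189 UMIs per cell in the lowest bin (0 to 11 S-phase UMIs) and 0.355 in the highest (22 to 45), 1.88 times as much (1.67 to 2.12). In dTAG13 cells it was 0.0835 in the lowest bin and 0.276 in the highest, 3.30 times as much (2.84 to 3.85). The dTAG13 library was below the DMSO library in all 5 bins. The ratio was 0.442 (0.379 to 0.516) in the lowest bin and 0.590 (0.523 to 0.665) in the second, then 0.799, 0.770 and 0.777 (0.692 to 0.871) in the upper ones. With the bins weighted alike in both libraries the Uhrf1 ratio was 0.687 (0.649 to 0.728), against 0.571 (0.540 to 0.604) for the same cells without bins.

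Dnmt1 showed a different picture. Its matched ratio was 0.994 (0.964 to 1.03), against 0.927 (0.900 to 0.954) without bins. The libraries differed beyond counting error only in the lowest bin, where Dnmt1 was at 0.621 UMIs per DMSO cell and 0.519 per dTAG13 cell, a ratio of 0.835 (0.777 to 0.899). In the 4 upper bins the ratios ran from 0.990 to 1.06, each with an interval that includes 1. 

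The matched ratios of Apobec3 and Dnmt3l stayed near their unmatched ones. Apobec3 was at 0.598 (0.545 to 0.657) matched and 0.573 (0.524 to 0.626) unmatched, and Dnmt3l at 1.70 (1.58 to 1.82) and 1.69 (1.58 to 1.81). Dnmt3l was above the DMSO library in every bin, from 1.56 (1.35 to 1.81) to 2.04 (1.71 to 2.44), the last in cells with the fewest S-phase transcripts. Tet1 had a matched ratio of 0.869 (0.849 to 0.890) and Tet2 one of 0.812 (0.769 to 0.857). Dnmt3a and Dnmt3b had matched ratios of 0.961 (0.874 to 1.06) and 0.935 (0.867 to 1.01), with intervals that include 1.

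**Figure D2:**
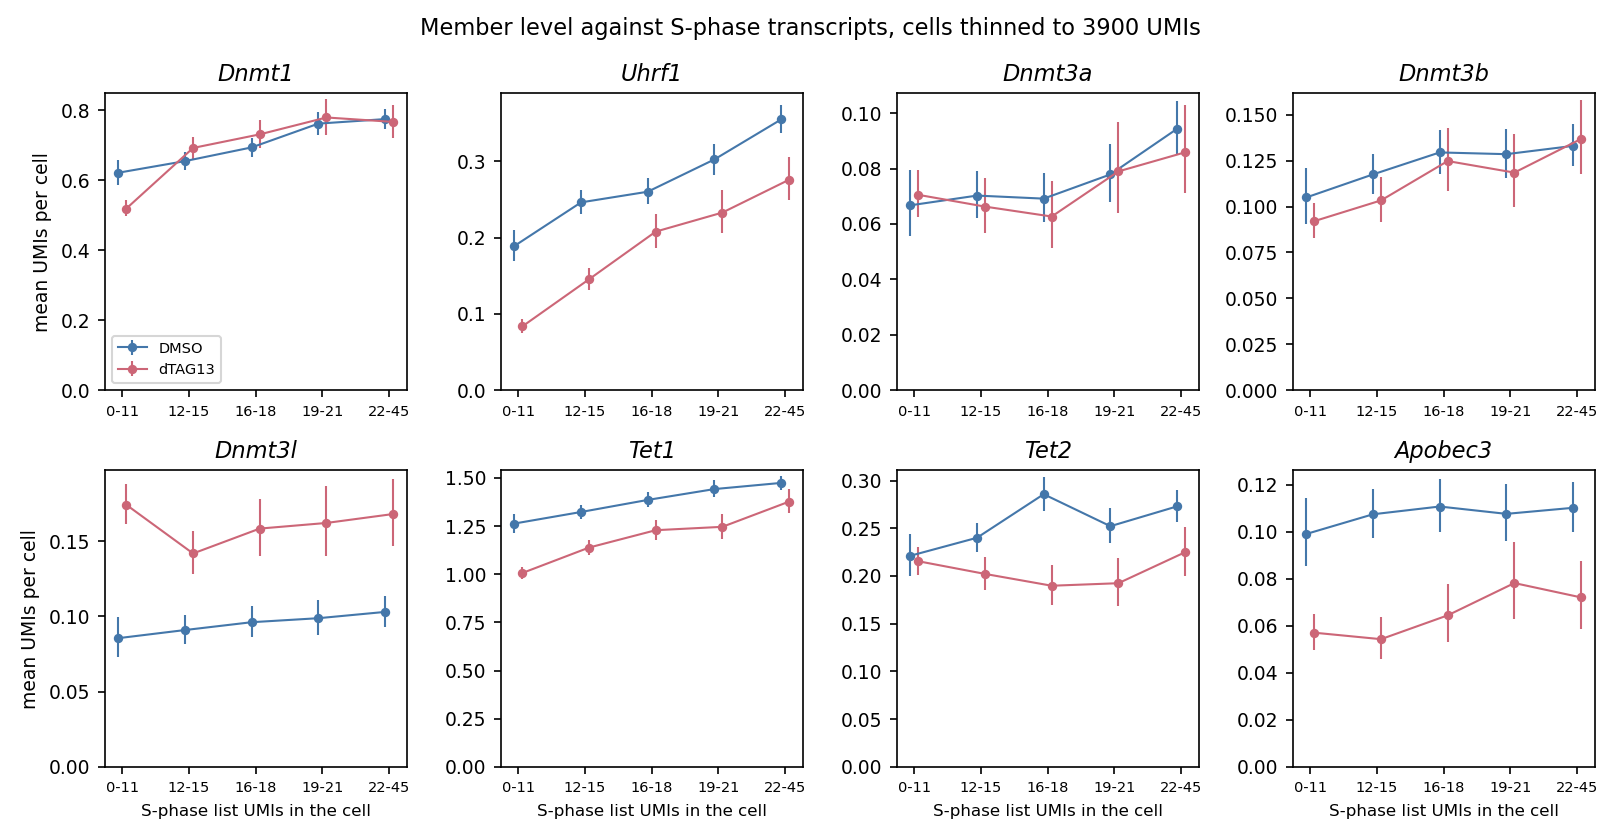
Mean UMIs per cell of each gene (vertical axis, from 0) in 5 bins of S-phase list UMIs (horizontal axis) for cells thinned to 3900 UMIs, by library, with 95% counting intervals. Uhrf1 climbs from 0.189 to 0.355 with DMSO and from 0.0835 to 0.276 with dTAG13, while the Dnmt3l and Apobec3 lines of the libraries stay apart in all bins.

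Across single cells the correlations were weak. Over thinned cells, Pearson's r of log2(UMIs + 1) between Uhrf1 and the S-phase list was 0.101 in 16123 DMSO cells and 0.166 in 10815 dTAG13 cells. For Dnmt1 and the S-phase list it was 0.0651 and 0.142, and for Tet1 and Tet2 it was 0.0606 and 0.103. These points share 1 library each and hold few UMIs of the gene, so they are given as descriptions. Dnmt1 and Tet1 were the only members with a UMI in at least 20% of the thinned cells of both libraries, apart from which no search for similar genes was made. Among 2017 such genes, ranked by the smaller r of the 2 libraries, the linker histone gene H1f4 came first for Dnmt1 (r of 0.0763 with DMSO and 0.102 with dTAG13) and L1td1, a pluripotency marker, for Tet1 (0.0992 and 0.174). In a single library other genes had a higher r, namely Hnrnpa3 with DMSO (0.0776) and H1f5 with dTAG13 (0.110) for Dnmt1, and Tdgf1 with dTAG13 (0.175) for Tet1.

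Cells were also called for phase from the S-phase and the G2 and M lists. G1 was called for 0.422% of thinned DMSO cells and 12.6% of thinned dTAG13 cells, S for 9.84% and 7.08%, and G2 or M for 89.7% and 80.4%. These calls are cuts on scores, and 6517 DMSO and 4171 dTAG13 cells lay within 0.05 of a limit. Thinned cells held medians of 39 (DMSO) and 38 (dTAG13) UMIs of the G2 and M list, against 17 and 14 of the S-phase list. The calls were not checked against DNA content, so the shares are not measured fractions of cells in each phase. In each library Uhrf1 was highest in cells called S, namely 102 CPM for DMSO and 73.3 CPM for dTAG13. Its level in cells called G1 was 47.2 CPM with DMSO, from 68 cells, and 15.5 CPM with dTAG13, from 1358 cells. Dnmt3l had a ratio above 1 under all 3 calls: 2.18 (1.14 to 4.79) for G1, 1.85 (1.52 to 2.26) for S and 1.51 (1.43 to 1.60) for G2 or M.

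Targets of the damage-response factor p53 were higher with dTAG13. Of 24 measured ones, 22 were at least 1.5-fold higher, against 14.2% of all measured genes. Among them, Pmaip1, Fas and Zfp365 reached 5 CPM only in the dTAG13 library. The 8 genes were therefore also set against p53 target UMIs per cell. The list of 25 targets had a median of 2 UMIs per thinned DMSO cell and 8 per thinned dTAG13 cell. In dTAG13 cells Uhrf1 was lower along this count, from 0.258 UMIs per cell with 0 to 1 p53 target UMIs to 0.134 with 9 to 36, a last-to-first ratio of 0.519 (0.394 to 0.696). In DMSO cells it was 0.286 and 0.260 in the same bins, a ratio of 0.908 (0.678 to 1.19). The libraries were closest where p53 targets were few: in cells with 0 to 1 such UMIs the ratio of dTAG13 to DMSO was 0.903 (0.678 to 1.18), from 213 dTAG13 and 7366 DMSO cells. In cells with 9 to 36 it was 0.515 (0.389 to 0.695), from 5018 and 204 cells.

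S-phase transcripts varied along the same axis. From the lowest to the highest p53 bin, dTAG13 cells held a mean of 17.6 and 13.1 S-phase UMIs, and DMSO cells 17.8 and 18.005. Splitting the dTAG13 cells by both counts, a step taken after the single splits were seen, Uhrf1 was at 0.114 (0.0894 to 0.143) UMIs per cell with 0 to 5 p53 target UMIs and 0.0774 (0.0681 to 0.0876) with 6 or more in the lowest S-phase bin. In the highest S-phase bin these values were 0.274 (0.230 to 0.323) and 0.277 (0.243 to 0.314), which overlap. The part of either list in the Uhrf1 difference was not tested.

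Tet1 also varied with p53 targets in the dTAG13 library. Its mean was 1.45 UMIs per dTAG13 cell in the lowest p53 bin and 1.05 in the highest, a ratio of 0.729 (0.650 to 0.821), while in DMSO cells it was 1.33 and 1.54. In the lowest bin the ratio of the libraries was 1.09 (0.968 to 1.22) for Tet1, and in the highest 0.683 (0.610 to 0.768). Dnmt3l was different: its library ratio was 1.74 (1.20 to 2.44) in cells with 0 to 1 p53 target UMIs, so it was higher with dTAG13 also in cells with few of them. With 9 to 36 it was 1.25 (0.863 to 1.87), an interval that includes 1, with means of 0.142 and 0.177 UMIs per DMSO and dTAG13 cell. Apobec3 had library ratios from 0.381 to 0.838 over the 5 bins, and 0.697 (0.396 to 1.14) in the lowest.

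**Figure D3:**
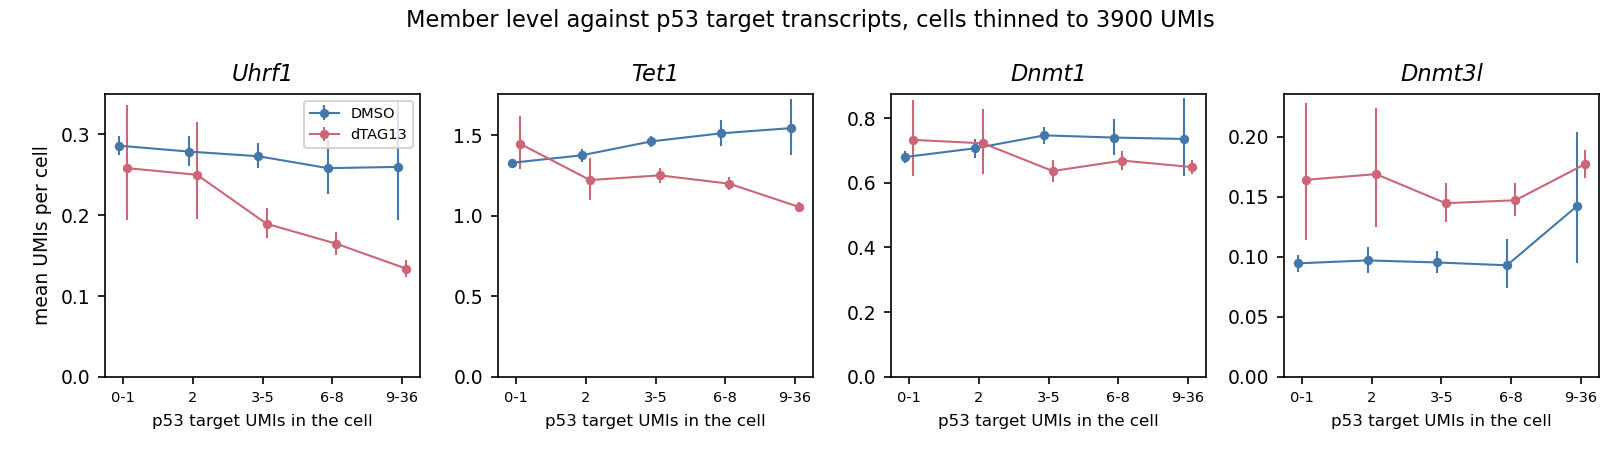
Mean UMIs per cell (vertical axis, from 0) of Uhrf1, Tet1, Dnmt1 and Dnmt3l in 5 bins of p53 target UMIs (horizontal axis), cells thinned to 3900 UMIs, by library, with 95% counting intervals. In dTAG13 cells Uhrf1 goes from 0.258 to 0.134 and Tet1 from 1.45 to 1.05 from the first to the last bin, while the DMSO points for Uhrf1 lie between 0.258 and 0.286.

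To see how the genes vary among cell states, cells of both libraries were clustered together with the 8 genes and the cell cycle lists left out. The 14 clusters mostly held cells of 1 library, so clusters are compared within a library, and library ratios within clusters are given only where each library had at least 50 cells. Cluster 7 was led by Ebf1, Sox11, Pim2, Zfp608 and Grb10 and held 636 DMSO and 544 dTAG13 cells. In it Dnmt3b was at 103 CPM in the control and 97.1 CPM after dTAG13, against 29.5 and 26.0 CPM in the other cells of each library, 3.49 times (3.16 to 3.84) and 3.74 times (3.39 to 4.11) as high. Dnmt3a was 1.64 times (1.38 to 1.95) and 1.58 times (1.33 to 1.86) as high there.

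The demethylation genes lay lower in the same cells. Tet2 in cluster 7 was at 21.1 CPM in the control and 12.04 CPM after dTAG13, against 68.8 and 53.2 CPM in the other cells, ratios of 0.307 (0.249 to 0.376) and 0.227 (0.175 to 0.289). Tet1 was at 273 and 180 CPM there, against 365 and 298 CPM elsewhere. Uhrf1 and Dnmt3l were close to the other cells of the DMSO library, at ratios of 1.08 (0.968 to 1.20) and 1.10 (0.908 to 1.32). In the dTAG13 library Uhrf1 was above the other cells, at 1.28 (1.13 to 1.44), and Dnmt3l was at 1.08 (0.938 to 1.23). High Dnmt3b and Dnmt3a with low Tet2 were thus found together in this cluster in both libraries. High Dnmt3a was not particular to it. Cluster 0, described below, had Dnmt3a at 29.3 CPM in DMSO and 36.7 CPM in dTAG13 cells, and Dnmt3b at 42.4 and 42.0 CPM. Tet2 was not low there, at 79.4 and 79.6 CPM.

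The reverse was seen for the DNMT3 genes in cluster 8, led by Rhox9, Rhox6 and Pdlim4. In its 3598 DMSO cells Dnmt3b was at 14.1 CPM, Dnmt3l at 10.8 CPM and Dnmt3a at 14.1 CPM, ratios of 0.383 (0.341 to 0.430), 0.388 (0.340 to 0.443) and 0.661 (0.585 to 0.744) to the other DMSO cells. Dnmt1 was at 200 CPM there, 1.13 times (1.09 to 1.17) as high as elsewhere. In its 269 dTAG13 cells Dnmt3b and Dnmt3l were at 12.1 and 13.1 CPM. Dnmt3a was at 17.2 CPM in these, a ratio of 0.911 (0.629 to 1.28) to the other dTAG13 cells, so it was not lower there beyond counting error.

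Dnmt3l was highest in cluster 6 and cluster 0. Cluster 6, led by Ttn, Vim and Manba, held 951 dTAG13 cells with Dnmt3l at 93.8 CPM, 2.62 times (2.39 to 2.87) the other dTAG13 cells, and also with Tet1 at 433 CPM and Tet2 at 90.6 CPM. Cluster 0, led by Septin1, Soga3 and Rigi, had Dnmt3l at 47.7 CPM in 3497 DMSO cells and 87.5 CPM in 139 dTAG13 cells. The ratio of dTAG13 to DMSO for Dnmt3l was above 1 in all 10 clusters where it could be formed, with an interval above 1 in 5 of them, and ran from 1.03 to 5.17, the last from a cluster of cells with few UMIs.

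The 70 DMSO cells of cluster 11, called trophoblast-like from Plac1, Hand1, Krt18, Krt8 and Rhox6 among its leading genes, had the lowest Tet1 of the DMSO clusters. Tet1 was at 68.1 CPM there, against 362 CPM in the other DMSO cells, a ratio of 0.188 (0.130 to 0.263), and Tet2 at 14.02 CPM, a ratio of 0.209 (0.0839 to 0.430). Dnmt1 was at 220 CPM, a ratio of 1.22 (0.999 to 1.47). Only 15 dTAG13 cells fell in this cluster, and no level is given for them. In the 2-cell-like cluster 13, led by Eif1ad and Zscan4 genes, families of near-identical copies, Dnmt1 was at 115 CPM in 73 DMSO cells, a ratio of 0.632 (0.472 to 0.829) to the other DMSO cells, and at 137 CPM in 65 dTAG13 cells, a ratio of 0.801 (0.616 to 1.02). Tet1 was at 223 and 207 CPM in these cells.

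Cluster 12, led by Krt19, Sct, Krt18 and Krt8 and made of 2852 dTAG13 and 101 DMSO cells, had the lowest Uhrf1 of all clusters in each library, at 24.0 and 33.6 CPM. It also had the lowest S-phase level, 2453 CPM summed over the list. Dnmt1 in its dTAG13 cells was at 123 CPM, 0.671 (0.642 to 0.701) of the level in the other dTAG13 cells. Without this cluster, an alternative added after seeing the data, the Dnmt1 ratio between the libraries was 1.01 and that of Uhrf1 was 0.662. Tet1 in its dTAG13 cells was at 219 CPM against 310 CPM elsewhere.

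Within clusters the Uhrf1 difference was uneven. The ratio of dTAG13 to DMSO was 0.672 (0.577 to 0.787) in cluster 9, led by Neurod1 and Mdm2, 0.694 (0.592 to 0.813) in cluster 7 and 0.761 (0.596 to 0.958) in cluster 8. In clusters 0 and 1, where 139 and 154 dTAG13 cells lay among DMSO cells, it was 1.02 (0.827 to 1.24) and 0.964 (0.790 to 1.17). Of 10 clusters, 9 had a ratio below 1 and 3 an interval below 1. For Tet1 the interval lay below 1 in 5 of 10 clusters, for Tet2 in 3 and for Apobec3 in 1. The ratio was above 1 in 2, 4 and 3 of the 10 clusters for these genes. Apobec3 ratios ran from 0.721 to 1.69, so no cluster had it at least 1.5-fold lower, though several clusters held few Apobec3 UMIs.

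**Figure D4:**
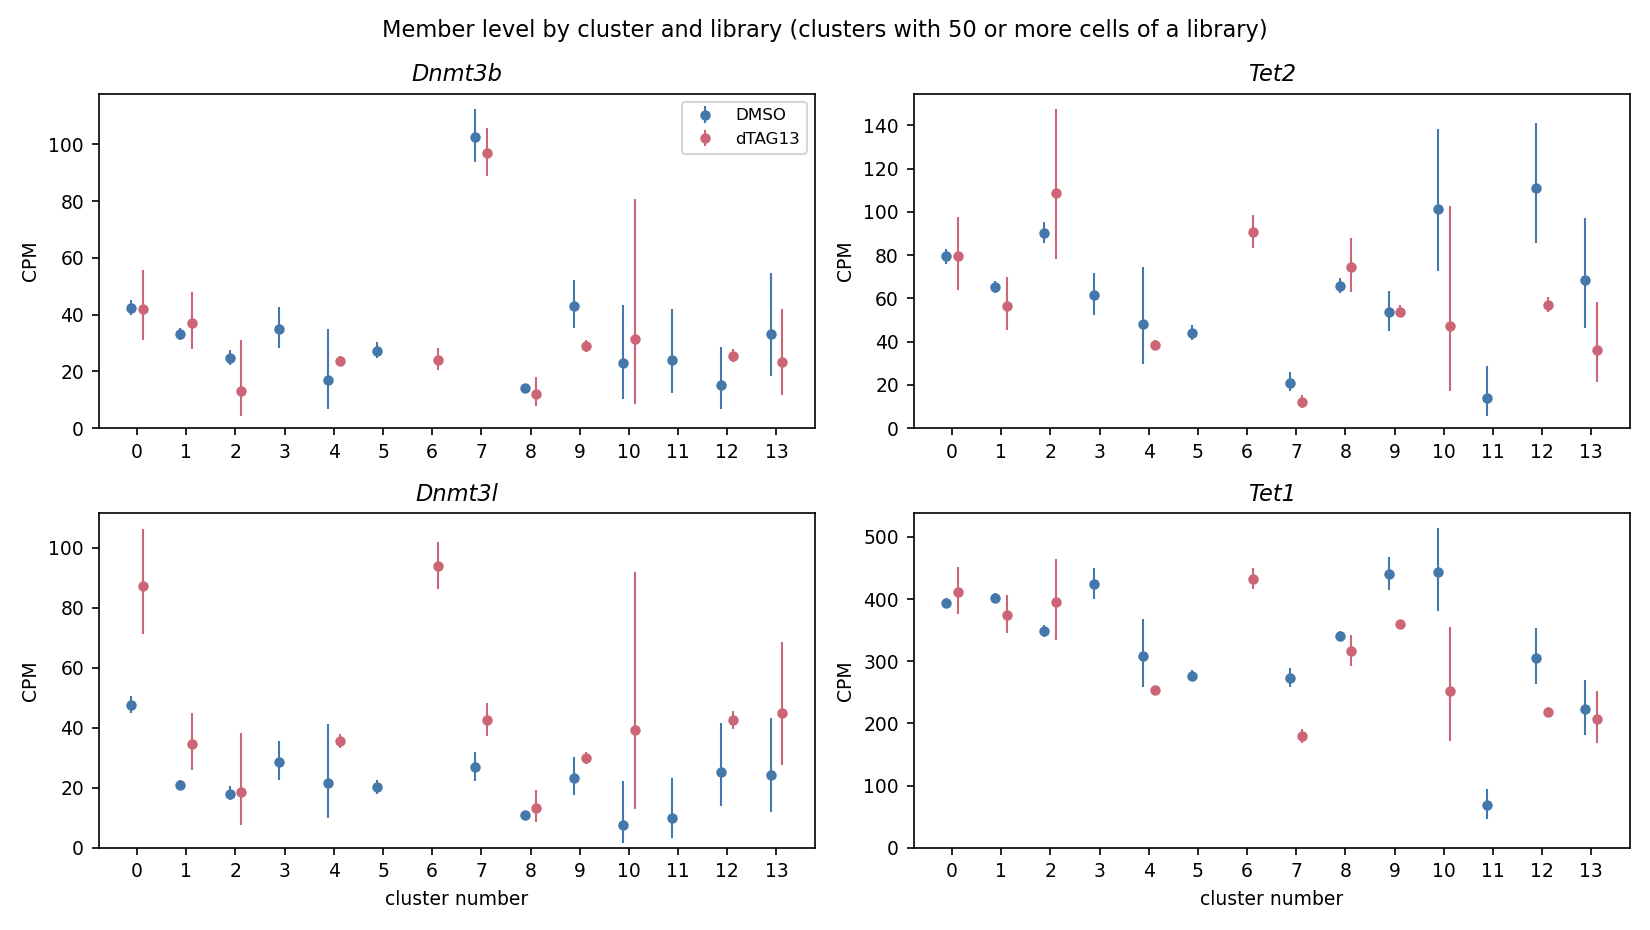
Level in CPM (vertical axis, from 0) of Dnmt3b, Tet2, Dnmt3l and Tet1 in each cluster (horizontal axis, cluster number) and library, with 95% counting intervals, for clusters with at least 50 cells of the library. Cluster 7 stands highest for Dnmt3b (103 and 97.1 CPM) and low for Tet2 (21.1 and 12.04 CPM), and Tet1 is lowest in cluster 11 at 68.1 CPM.

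The wider pathway was followed with 52 further genes, of which 41 were measured. Of these, 6 were at least 1.5-fold lower with dTAG13 and 3 at least 1.5-fold higher, and the median log2 ratio of the 41 was -0.04. Among the 3 higher ones, Apobec1 and Zbtb33 reached 5 CPM only in the dTAG13 library. As with the 8 genes, 5.4% and 14.2% of all measured genes passed these limits. The count on the lower side was 1 in cells called S, and the count on the higher side went from 1 at a minimum of 20 CPM to 6 with no minimum.

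Of 7 measured maintenance partners, 1 was at least 1.5-fold lower, against 5.4% of all measured genes, and a single gene says little about the role. Pcna, the replication clamp that loads maintenance enzymes, was at 154 CPM in the control and 102 CPM after dTAG13, giving a ratio of 0.665 (0.648 to 0.681). Lig1, the replicative ligase and a UHRF1 partner, had levels of 169 and 121 CPM and a ratio of 0.717. Hells, a chromatin remodeller needed for methylation, and its activator Cdca7 had ratios of 0.761 and 0.797. Usp7, a deubiquitinase that binds DNMT1 and UHRF1, was at 160 and 213 CPM, a ratio of 1.33 (1.30 to 1.35). Dppa3, which keeps UHRF1 off chromatin, was at 53.07 and 53.03 CPM. At matched S-phase UMIs the ratios were 0.853 (0.832 to 0.875) for Hells and 0.792 (0.765 to 0.820) for Lig1.

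All 6 measured genes of heterochromatin silencing and methylation protection had a ratio below 1, as did 39.7% of all measured genes. Of the 6, 3 were at least 1.5-fold lower, against 5.4% of all measured genes. Trim28, the corepressor that zinc finger proteins recruit to imprints and retrotransposons, was at 197 and 118 CPM, a ratio of 0.598 (0.585 to 0.612). Zfp57, the zinc finger protein that brings it to imprinted regions, was at 74.5 and 47.9 CPM, and Ehmt2, an H3K9 methyltransferase, at 32.2 and 19.6 CPM. At matched S-phase UMIs the Trim28 ratio was 0.620 (0.599 to 0.643), against 0.592 for the same cells without bins. Matched on p53 target UMIs instead, the Trim28 ratio was 0.742 (0.689 to 0.799). Setdb1, Smchd1 and Ehmt1 had ratios of 0.818, 0.854 and 0.918. In cells called S none of the 6 was at least 1.5-fold lower, with ratios of 0.764 for Trim28, 0.929 for Zfp57 and 0.690 for Ehmt2. These ratios come from 1587 DMSO and 766 dTAG13 cells and have no intervals here. The count therefore does not settle whether a gene near the limit, such as Ehmt2, passes it there.

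Of 6 measured readers of methylated DNA, Zbtb33 alone was past 1.5-fold, on the higher side. That is near the 14.2% of all measured genes that were at least 1.5-fold higher. Its levels were 4.26 and 6.73 CPM, with a ratio of 1.58 (1.40 to 1.78), and Mbd2 and Mbd1 had ratios of 1.46 and 1.42. Mbd3, a member of the NuRD complex, had a ratio of 0.908. Among base excision and deamination genes, Tdg, the glycosylase that removes oxidised methylcytosine, had levels of 38.5 and 50.5 CPM with a ratio of 1.31 (1.26 to 1.37), and Apex1, the next enzyme in repair, was at 328 and 251 CPM.

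Apobec1, an RNA-editing deaminase, was at 2.01 CPM in the control and 7.56 CPM after dTAG13, giving a ratio of 3.75 (3.23 to 4.37). Its relative Apobec2 was at 17.4 and 6.48 CPM, a ratio of 0.372 (0.339 to 0.408). The stress gene Gadd45g was at 9.10 and 27.8 CPM, a ratio of 3.05, while Gadd45a was at 25.1 and 25.5 CPM. Idh2, a mitochondrial source of the TET cofactor 2-oxoglutarate, had 77.9 and 45.4 CPM, with a ratio of 0.583, and its cytosolic relative Idh1 was at 39.8 and 53.7 CPM, a ratio of 1.35. Mat2a, which makes the methyl donor, had a ratio of 0.925.

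**Figure D5:**
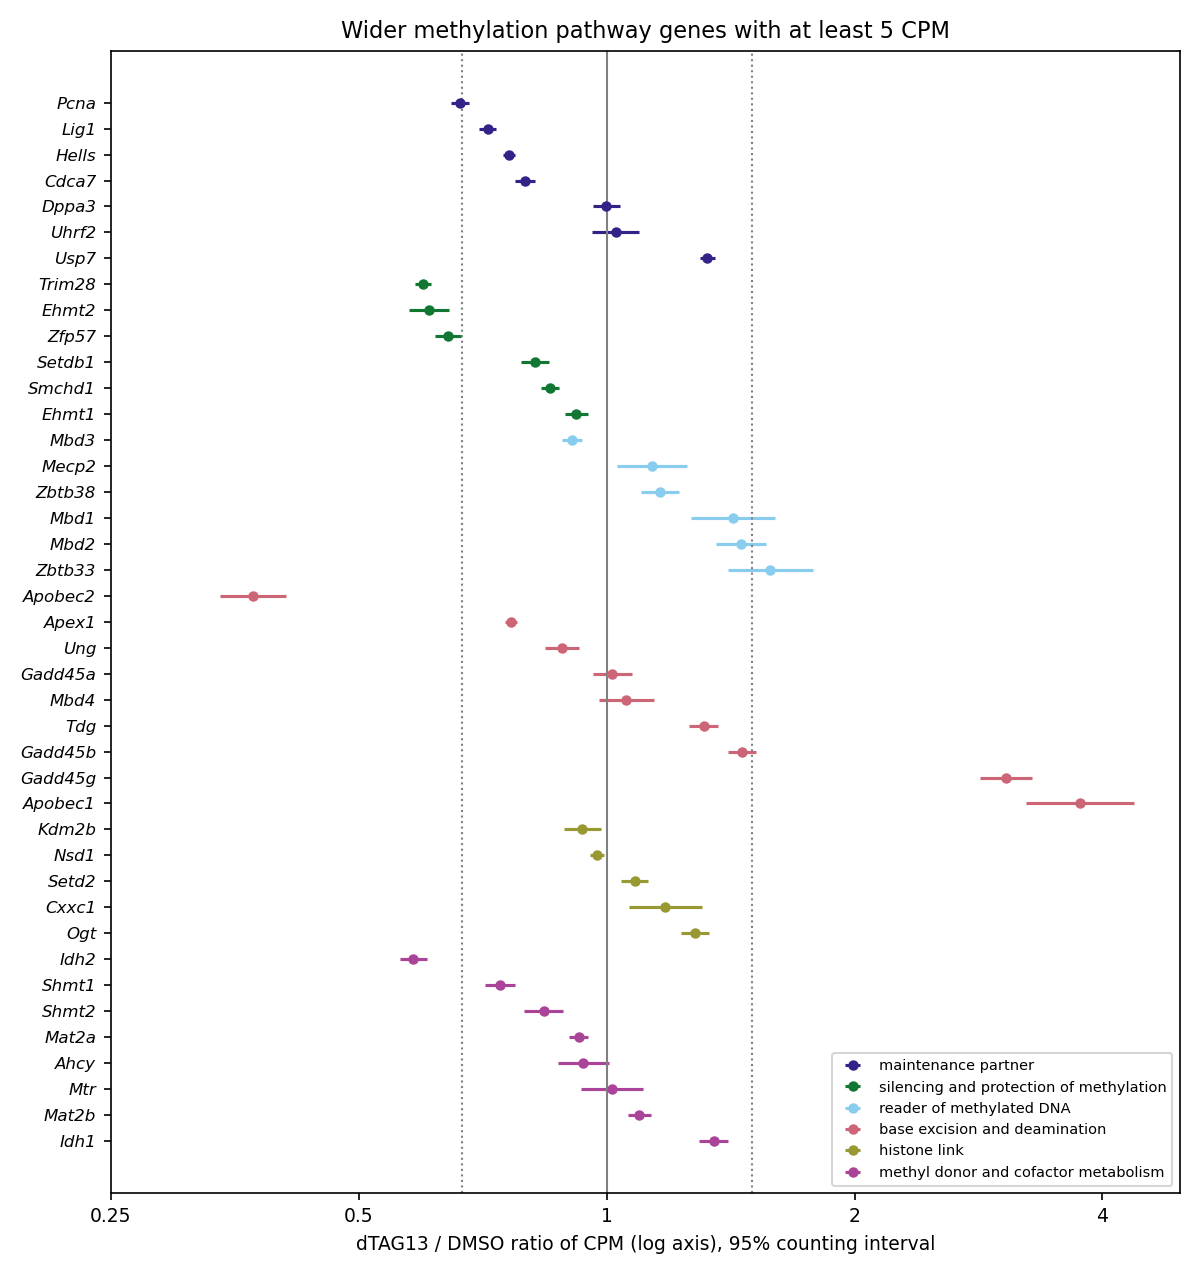
Ratio of dTAG13 to DMSO (horizontal log axis) with 95% counting intervals for the measured genes of the wider list (vertical axis), coloured by role, with dotted lines at 1.5-fold. Silencing genes lie left of 1, from Trim28 at 0.598 to Ehmt1 at 0.918, and Apobec1 lies farthest right at 3.75.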

How the data were processed

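Single-cell RNA was measured in 1 DMSO and 1 dTAG13 library made with a 10x Chromium 3′ kit, per the labels' protocols. The values deposited are raw UMI counts, and per the file headers Cell Ranger 8.0.1 wrote them. mm10, Seurat 5.0.1 and R 4.3.2 also appear in the submitters' processing notes, which do not give their use. The annotation and barcode filter are not given in the sources used here. Counts of identifiers with the same symbol were summed.

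Barcodes were kept at 500 or more genes and up to 10% mitochondrial UMIs. No doublet caller was run and doublets remain. UMIs were summed per library and scaled to CPM. CPM has exact Poisson intervals, ratios exact conditional binomial intervals and shares Clopper-Pearson intervals, all at 95%. Weighted ratios over bins have normal-approximation intervals on the log scale. A gene was measured at 5 CPM or more in 1 or both libraries. Molecules were thinned without replacement to 3900 UMIs per cell. Bins were 5 groups of similar size of the pooled thinned cells. Phase scores and clusters (2000 variable genes, 30 principal components, 15 neighbours, resolution 1) used scanpy 1.11.5. A cluster was named only with at least 3 fixed markers at 10 CPM or more and 2 times the other cells. For the trophoblast-like name, shared pluripotency was also required to be at most 0.5 of that elsewhere, which was chosen with the data in view. The ratio and bin calculations were run on simulated Poisson counts, the latter with 10 bins and not 5, which checks the arithmetic only. Real counts per cell varied more than Poisson counts, with a variance over mean of 1.94 (DMSO) and 2.23 (dTAG13) for Tet1 without thinning. The counting intervals do not cover that extra spread.

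The genes and lists were chosen with earlier results of these data known. The genes named are the 8 members, those of the wider list at least 1.5-fold apart and examples of each role, germline genes at 5 CPM or more, and up to 5 genes most similar to a member. Promoters came from RefSeq (GRCm38.p6), matched by symbol. All 8 member identifiers are in GENCODE M21. Alternatives covered cell filters, scaling, cell weighting, high-UMI cells, phases, the CPM minimum, thinning depth and bins.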

Additional observations from a re-analysis of the deposited data

How the results depend on the processing

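No paired analysis was possible because each group is 1 library, and no library could be left out. The counts of members at least 1.5-fold apart kept their values under the other cell filters, scalings and CPM limits tried. In cells called S, however, 0 members were at least 1.5-fold lower and 1 gene of the wider list was. The intervals of Uhrf1 and Apobec3 in those cells include a 1.5-fold lower level. The wider list had 5 genes at least 1.5-fold higher with every cell weighted equally, 1 at 20 CPM or more and 6 with no minimum CPM. The median log2 ratio of the members was -0.28 with median-of-ratios scaling (over genes at 5 CPM or more in both libraries, a factor of 1.053), -0.31 over the 7 members at 20 CPM or more and -0.14 without the keratin-led cluster 12, the last added after seeing the data. The Uhrf1 ratio at matched S-phase UMIs was 0.641 with thinning to 2500 UMIs. Matched on p53 target UMIs instead it was 0.741, matched on G2 and M UMIs 0.613, and unmatched 0.571. Over 9 alternatives the plain ratio ran from 0.564 to 0.722 for Uhrf1, from 0.578 to 0.823 for Apobec3 and from 1.51 to 1.85 for Dnmt3l. The Dnmt1 ratio turned to 1.01 without cluster 12. Over all kept cells without thinning, the share with a UMI was higher with dTAG13 by 1.59 percentage points for Dnmt1 and 0.851 for Dnmt3b. In the same cells that were thinned, an alternative added after seeing the data, it was higher by 1.15 and 0.676 without thinning. Both are opposite to thinned cells, where UMIs per cell are equal. Low levels per cell limit shares by cluster.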

Other observations

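Germline genes that promoter methylation keeps silent in somatic cells were also followed, with 14 genes of which 5 were measured. Their levels are not a measure of promoter methylation, and Hormad1, Tex19.1 and Sycp3 were not silent in the control library. Hormad1, a meiotic chromosome axis gene, was at 27.5 CPM in the control and 70.3 CPM after dTAG13, giving a ratio of 2.56 (2.45 to 2.67). Dazl, a germ cell RNA-binding protein gene, was at 5.58 and 9.90 CPM, a ratio of 1.77 (1.60 to 1.965). Tex19.1, which restrains retrotransposons, was at 27.9 and 27.0 CPM, Sycp3, of the synaptonemal complex, at 14.6 and 14.3 CPM, and the helicase gene Ddx4 at 4.67 and 5.21 CPM. Thus 2 of 5 were at least 1.5-fold higher, where 14.2% of all measured genes were, and 0 were at least 1.5-fold lower. A separate list of 6 germ cell markers, which shares Dazl and Ddx4, had more genes on the lower side, with 3 at least 1.5-fold lower against 5.4% of all measured genes and 1 higher. These were Prdm1, a transcription factor gene of germ cell specification, at 16.7 and 9.02 CPM, Stk31 at 19.05 and 11.9 CPM, and Nanos3, an RNA-binding factor gene of germ cells, at 22.9 and 15.2 CPM. DNA methylation itself was not measured here.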
